A study of Mus musculus with 5 samples.

Results

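Gfap, Scrg1, S100b, Ngfr, L1cam, Ncam1 and Apod are 7 genes used to recognise glia, and the nonmyelinating Schwann cells of peripheral nerve in particular. They were taken by name from the 56941 gene identifiers of the count table, and all 7 were among the 19713 genes tested. The set was put together with the genotype differences of these pools in view, namely higher Gfap against lower S100b and Scrg1, so the members were chosen by the genotype difference measured here and those differences are given as a description, without a test. RNA was sequenced from the iridocorneal angle, the ring of drainage tissue between iris and cornea, of 12 month old male and female mice. DBA/2J mice carry a premature stop mutation in Gpnmb together with the Tyrp1 b allele and develop pigmentary glaucoma. DBA/2J-Gpnmb+/SjJ mice (Gpnmb+) share this background, the Tyrp1 b allele included, and carry a functional Gpnmb. The DBA/2J group held 3 pools and the Gpnmb+ group 2 pools, and the design text gives 3 mice to each pool. The library names list 3 animals for every DBA/2J pool and 2 for each Gpnmb+ pool. No mouse was treated. The dissected ring kept remnants of iris and ciliary body, so the pools are tissue mixtures and not sorted glia.

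Schwann cells wrap the axons of peripheral nerves. Those around large axons make myelin, and nonmyelinating cells hold bundles of thin axons, as in the sensory and autonomic nerves of the anterior eye. Nonmyelinating cells keep Gfap, Ngfr, L1cam and Ncam1, which myelinating cells switch off as they mature, while S100b and Sox10 are shared by the whole lineage. None of the 7 genes is restricted to these cells. Astrocytes and Müller glia also make Gfap, melanocytes make S100b, muscle and neurons make Ncam1, and fibroblasts make Apod. In bulk tissue, fewer cells of a type and less RNA per cell cannot be told apart.

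The promoter windows of Gfap and S100b are shown because these 2 genes differed between the genotypes in opposite directions, and that of Ngfr because its pools overlapped. Each runs 5′ to 3′ from 250 bases before to 50 bases after the RefSeq start, in build GRCm38.p6, and is the reference sequence, not that of DBA/2J. The Gfap window lies at chr11:102897151-102897450 on the minus strand, that of S100b at chr10:76253586-76253885 on the plus strand and that of Ngfr at chr11:95587649-95587948 on the minus strand. Capitals mark matches, on either strand, to the motifs searched, which are spelled out here. The first SOX core was ACAAAG. The other SOX core was AACAAT. The STAT motif was TTCNNNGAA. The AP-1 motif was TGANTCA. The TATA box was searched as TATAAA. The last motif was CCAAT.
Gfap: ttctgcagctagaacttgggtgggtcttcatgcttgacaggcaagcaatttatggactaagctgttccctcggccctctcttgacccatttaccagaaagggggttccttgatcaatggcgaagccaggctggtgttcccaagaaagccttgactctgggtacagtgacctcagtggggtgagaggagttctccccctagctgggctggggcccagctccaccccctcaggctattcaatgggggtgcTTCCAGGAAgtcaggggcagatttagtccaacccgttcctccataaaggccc
S100b: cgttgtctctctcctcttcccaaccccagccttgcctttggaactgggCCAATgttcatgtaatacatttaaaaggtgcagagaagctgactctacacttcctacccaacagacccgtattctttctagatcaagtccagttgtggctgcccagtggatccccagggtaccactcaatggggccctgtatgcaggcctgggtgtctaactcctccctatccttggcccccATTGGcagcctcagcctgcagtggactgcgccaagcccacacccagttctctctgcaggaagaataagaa
Ngfr: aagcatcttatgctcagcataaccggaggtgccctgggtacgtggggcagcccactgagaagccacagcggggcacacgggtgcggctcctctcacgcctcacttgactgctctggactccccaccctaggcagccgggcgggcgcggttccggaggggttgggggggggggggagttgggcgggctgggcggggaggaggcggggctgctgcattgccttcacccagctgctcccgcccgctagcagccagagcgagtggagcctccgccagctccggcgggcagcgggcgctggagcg
The Gfap window held 1 match to the STAT motif, TTCCAGGAA, which began 2 bases before the RefSeq start. Of all 32851 promoter windows in the table, 8.3% held such a match. The S100b window held 2 CCAAT matches, a motif present in 37.4% of windows. No SOX core was found in the windows of Gfap, S100b, Ngfr or L1cam, and Apod held matches to both cores, which occur in 18.7% and 10.7% of windows. No AP-1 or TATA box match was found in these genes, where 7.81% and 13.6% of all windows hold one. Gfap and S100b had 3 CpG pairs each and Apod had 4, below the median of 7 over all windows, while Ngfr had 23 and the 2 L1cam windows 25 and 22. RefSeq windows matched 5 of the 7 genes, and Scrg1 and Ncam1 were not among them.

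The count totals of the 5 pools ran from 43900661 to 49837758. Gpnmb itself gave 1946 to 2234 counts per DBA/2J pool against 129659 and 110568 per Gpnmb+ pool. The study's methods give both sexes to each genotype, with more males than females among the Gpnmb+ mice, and the Gpnmb+ libraries disagree with this. The Y-linked gene Ddx3y gave 3608, 4168 and 1567 counts in the DBA/2J libraries and 0 and 4 in the Gpnmb+ libraries. Kdm5d, Eif2s3y and Uty, also on the Y chromosome, had at most 1 count in either Gpnmb+ library. Xist, which is expressed from the inactive X chromosome of females, gave 596, 0 and 2417 against 7843 and 9152. Genotype and sex makeup therefore cannot be told apart in any difference between the groups given here. Levels are given as CPM, the counts of a gene scaled to a common library total, after scaling by edgeR's TMM method, and a positive log2 fold change means higher in DBA/2J. A call required both a p-value of 0.05 or less in edgeR's quasi-likelihood test, after Benjamini-Hochberg adjustment over all genes, and a change of 1.5-fold or more. Of all tested genes 0.796% met this, 0.502% as higher and 0.294% as lower in DBA/2J, and 18.4% passed 1.5-fold by the estimate alone. The pools of the genotypes did not overlap for 34.5% of tested genes, with DBA/2J above for 17.3% and below for 17.2%, and the median log2 fold change of all genes was -0.02. Among the 7 glial genes, the pools of 3 did not overlap and passed 1.5-fold by the estimate, with Gfap above and S100b and Scrg1 below in DBA/2J. As the genes were picked on this contrast, nothing is read from these counts, and no call is given for the 7.

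Gfap encodes the intermediate filament protein of astrocytes and nonmyelinating Schwann cells. DBA/2J pools 1 to 3 gave 648, 950 and 685 counts, and Gpnmb+ pools 1 and 2 gave 362 and 447. Every DBA/2J pool lay above both Gpnmb+ pools, and DBA/2J pool 2 was the highest of all. The level was 17.4 ± 4.16 CPM (SD, n = 3) in DBA/2J and 8.14 ± 1.42 CPM (SD, n = 2) in Gpnmb+, which is 2.13-fold higher in DBA/2J, and the log2 estimate was 1.09 with a standard error of 0.23. Gfap lies at chr11:102778159-102791738 of GRCm39, and no exon of another annotated gene overlaps its exons.

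S100b encodes a calcium-binding protein of glia. It gave 414, 535 and 620 counts across DBA/2J pools, against 2115 and 2745 across Gpnmb+ pools. The DBA/2J pools were all far below the Gpnmb+ pools, and the 2 nearest pools of opposite genotype were 1.58 apart on the log2 scale. The level was 11.9 ± 2.35 CPM (SD, n = 3) in DBA/2J and 48.9 ± 10.2 CPM (SD, n = 2) in Gpnmb+, 4.11-fold higher in Gpnmb+, and the log2 fold change was -2.04 with a standard error of 0.21. S100b lies at chr10:76085090-76097159 of GRCm39.

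Scrg1, stimulator of chondrogenesis 1, encodes a small secreted protein first found as a scrapie-responsive transcript. It gave 4, 2 and 2 counts across DBA/2J pools, against 72 and 90 across Gpnmb+ pools. The gene was thus almost without reads in DBA/2J, and it reached the minimum of 10 counts through the Gpnmb+ pools alone, so a gene kept in this way had to differ. Summed over pools and scaled to library size, Scrg1 was 26.8-fold higher in Gpnmb+, with a 95% exact interval of 13.3 to 63.2 that covers counting error and not the spread between pools. The fitted log2 fold change was -4.69 with a standard error of 0.40. In DBA/2J its log2 CPM rests on a few reads and moved with the prior count, in pool 2 from -3.48 with a prior count of 2 to -4.12 with 0.5. Scrg1 lies at chr8:57908933-57932433 of GRCm39.

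Apod encodes apolipoprotein D, a secreted lipocalin that carries small hydrophobic molecules. It was the most abundant of the 7, with 35501, 44308 and 32362 counts across DBA/2J pools, against 71678 and 43568 across Gpnmb+ pools. Gpnmb+ pool 1 stood above the other 4 pools, and Gpnmb+ pool 2 lay inside the DBA/2J range. The log2 fold change was -0.43 with a standard error of 0.24, moving to -0.06 when Gpnmb+ pool 1 was left out and to -0.73 when pool 2 was. The exons of Apod overlap those of Gm41442 on the opposite strand, which had 7 to 43 counts.

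Ngfr encodes p75NTR, a receptor for neurotrophins. It gave 837, 1009 and 895 counts across DBA/2J pools, against 1257 and 1002 across Gpnmb+ pools. In CPM, Gpnmb+ pool 2 at 20.5 lay between DBA/2J pool 3 at 20.1 and DBA/2J pool 2 at 23.5, and the genotypes overlapped. The log2 fold change was -0.12 with a standard error of 0.14, and it turned to 0.02 without Gpnmb+ pool 1.

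L1cam and Ncam1 encode adhesion molecules of the immunoglobulin superfamily that hold axons and Schwann cells together. L1cam gave 2670, 2971 and 2314 counts across DBA/2J pools, against 3509 and 3425 across Gpnmb+ pools. DBA/2J pool 2, at 69.2 CPM, equalled Gpnmb+ pool 1, and the other DBA/2J pools were lower at 60.1 and 51.9. The log2 fold change was -0.20 with a standard error of 0.13. L1cam lies on the X chromosome, and DBA/2J pool 2, which had no Xist count, had the highest L1cam level of its group. The Gpnmb+ pools, with 7843 and 9152 Xist counts, stood as high, at 69.2 and 70 CPM. A part of sex in L1cam was not tested. An exon of the neighbouring Arhgap4, which had 145 to 256 counts, overlaps L1cam on the same strand. Ncam1 gave 3857, 4381 and 5676 counts across DBA/2J pools, against 5213 and 4553 across Gpnmb+ pools, and DBA/2J pools 1 and 3 were its lowest and highest by CPM. Its log2 fold change was 0.11 with a standard error of 0.17, and -0.05 without DBA/2J pool 3. The exons of Ncam1 overlap those of Gm11149 on the opposite strand, which had 3 to 6 counts.

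**Figure D1:**
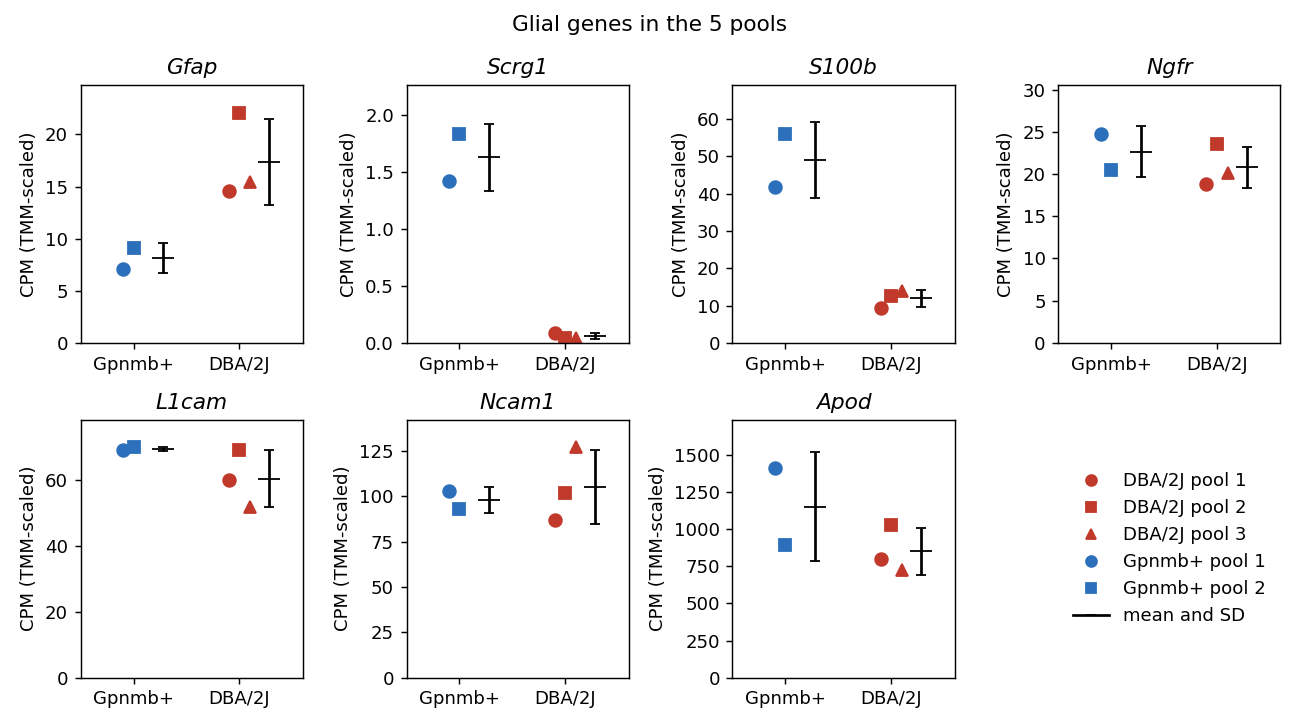
TMM-scaled CPM of the 7 genes in each pool (points, marked by pool number), with the mean and SD of each genotype beside them and a separate vertical axis for each gene. Gfap lies higher in all 3 DBA/2J pools, S100b and Scrg1 lie lower, and the pools of Ngfr, L1cam, Ncam1 and Apod overlap or touch.

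Levels were compared between genes as CPM per kilobase of exon. In Gpnmb+ the order was Apod at 389 ± 125 (SD, n = 2), S100b at 24.5 ± 5.11, Ncam1 at 11.1 ± 0.777, L1cam at 8.78 ± 0.0768, Ngfr at 6.56 ± 0.879, Gfap at 1.42 ± 0.248 and Scrg1 at 0.576 ± 0.105. In that order no neighbours overlapped within 1 SD. In DBA/2J, S100b was 5.95 ± 1.17 CPM per kilobase (SD, n = 3), which did not differ beyond the spread from Ngfr at 6.03 ± 0.702 or L1cam at 7.62 ± 1.09. Ncam1 stood above these at 12.0 ± 2.32, and Gfap below at 3.04 ± 0.728. Apod remained the highest at 288 ± 54.2 and Scrg1 the lowest at 0.0214 ± 0.00903. S100b thus had the second highest level per length in Gpnmb+ and stood beside the receptor and adhesion genes in DBA/2J.

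**Figure D2:**
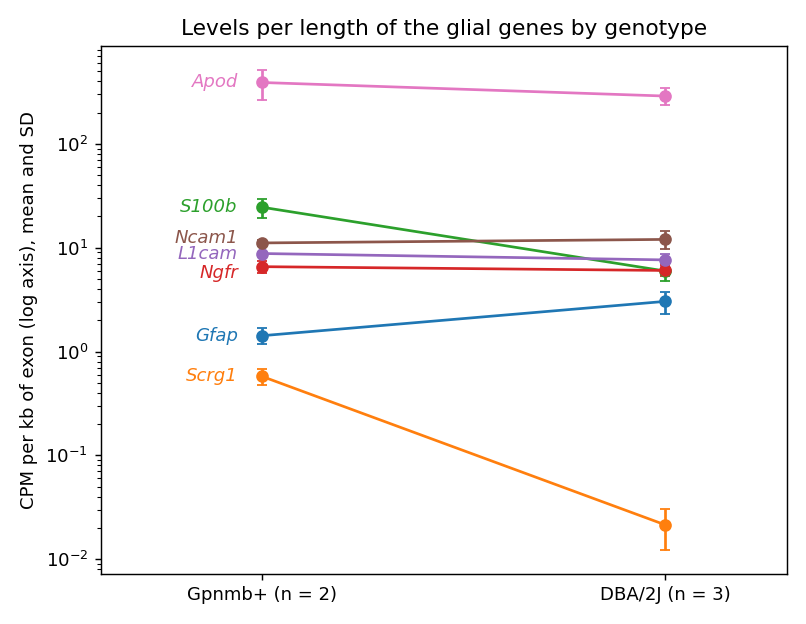
Mean CPM per kilobase of exon, with SD, of the 7 genes in Gpnmb+ (2 pools) and DBA/2J (3 pools) on a log axis, joined by lines for each gene. S100b falls from 24.5 to 5.95 and meets Ngfr and L1cam, Gfap goes from 1.42 to 3.04, and Scrg1 goes from 0.576 to 0.0214.

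The contrast of Gfap with S100b and Scrg1 is the one for which these genes were picked, and its size within each pool is a description. The ratio of Gfap to S100b in CPM per kilobase came to 0.547, 0.621 and 0.386 across DBA/2J pools 1 to 3, against 0.0598 and 0.0569 across Gpnmb+ pools 1 and 2. The 2 Gpnmb+ pools were nearly alike, and the DBA/2J pools all stood above them, although S100b exceeded Gfap per length in every pool. The difference between the log2 fold changes of Gfap and S100b was 3.13, and it ran from 2.95 to 3.34 over all alternatives. For Gfap and Scrg1 it was 5.78, with a range of 5.42 to 6.28. S100b and Scrg1 did not keep a fixed ratio either. Scrg1 was 0.024 and 0.0231 of S100b per length in the Gpnmb+ pools and 0.00682, 0.00264 and 0.00228 in the DBA/2J pools, of which the DBA/2J values rest on 2 to 4 counts of Scrg1.

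**Figure D3:**
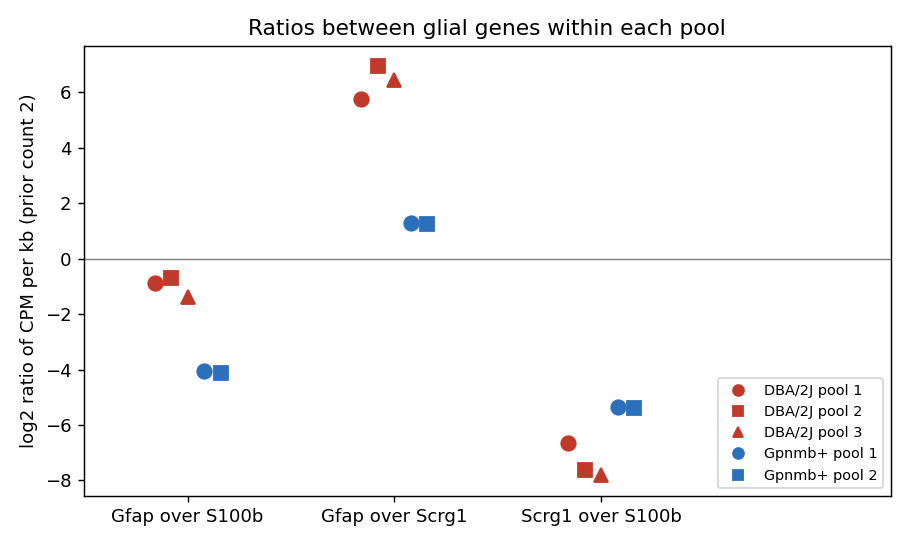
Log2 ratio of CPM per kilobase between pairs of glial genes in each of the 5 pools, with the prior count of 2. Gfap over S100b lies between -1.37 and -0.69 in DBA/2J and at -4.06 and -4.13 in Gpnmb+, and Gfap over Scrg1 is likewise higher in all 3 DBA/2J pools.

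Over the 5 pools, Ngfr and L1cam had the most similar profiles among the 7 genes, with a root mean square difference of 0.141 between their log2 CPM after centring each gene on its mean. Gfap and Scrg1 were the least alike, at 2.53, and S100b and Scrg1 differed by 1.05. Outside the set, the genes nearest to Gfap were C1ql1 (0.0784), Ly75 (0.103) and Matk (0.125), out of 15102 genes with a symbol and a mean log2 CPM of at least 0. Their log2 fold changes were 1.04, 1.15 and 0.90. Nearest to S100b were Scn8a (0.13), which encodes a sodium channel of axons, Kcnip3 (0.135) and Gm31520 (0.15). Scn8a had a log2 fold change of -2.22 and Kcnip3 one of -1.82. Nearest to Scrg1 were Car6 (0.562), Pax3 (0.708) and Syt4 (0.753), a looser likeness, with log2 fold changes of -3.22, -2.87 and -2.75. The measure takes in the genotype difference itself, so these fold changes follow from the choice and are given without a test.

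Genes of related function were taken from 11 fixed lists, which held 115 tested genes outside the set. edgeR called 9 of the 115, 6 higher and 3 lower in DBA/2J, a share of 7.83% beside 0.796% of all genes. The lists were written with results of these pools known, so nothing is read from that share. The 9 calls fell to 1, 0 and 1 without DBA/2J pools 1, 2 and 3 and to 0 without Gpnmb+ pool 2, and were 12 without Gpnmb+ pool 1. At an unadjusted p of 0.05 or less, edgeR passed 45 of the 115 with all pools, beside 3136 of all 19713 tested genes. The unadjusted counts given below for single lists stand against that background. Counts of genes whose pools did not overlap, in these lists and the marker lists, stand against 34.5% of all tested genes. Without DBA/2J pool 2 it passed 44 of the 115, beside 2738 of the 19620 genes tested in that fit. Mlc1 was the gene called when DBA/2J pool 1 or 3 was left out, so every other call named from these lists was lost in those fits. DESeq2 called 31 of the 115, beside 927 of all 19713 tested genes. Its counts for single lists thus have a larger background than those of edgeR.

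Genes of the whole Schwann lineage, among them the transcription factor Sox10 and the neuregulin receptor Erbb3, were measured in every pool. Of 11, 2 were called lower in DBA/2J and none higher, 9 had a negative log2 fold change and the median was -0.52. The pools of 9 did not overlap, among them the 2 genes with a positive log2 fold change. An unadjusted p of 0.05 or less was found for 7, and DESeq2 called 4. Lgi4, a secreted Schwann cell protein needed for myelination, had DBA/2J counts of 723, 818 and 866 and Gpnmb+ counts of 1813 and 1581. Every DBA/2J pool was below both Gpnmb+ pools, and Lgi4 fell by 0.90 on the log2 scale (adjusted p = 0.0416 by edgeR's quasi-likelihood test, standard error 0.12). The call was lost when any 1 of the 5 pools was left out, with adjusted p-values of 0.0871 to 0.14 in edgeR. Sox10 had 176, 143 and 231 counts against 513 and 537, without a call in edgeR, and was called by DESeq2. The summed level of the list was 308 to 342 CPM in DBA/2J and 405 and 412 CPM in Gpnmb+.

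Among other genes of nonmyelinating Schwann cells, Cdh2, which encodes N-cadherin, was the 1 of 7 called. It had DBA/2J counts of 3440, 3097 and 3559 and Gpnmb+ counts of 2239 and 1988, and rose by 0.85 on the log2 scale (adjusted p = 0.0283 by edgeR's quasi-likelihood test, standard error 0.09). Cdh2 is expressed in many tissues besides nerve. Matn2, a matrix protein, had a log2 fold change of 1.26 and the glial receptor Gfra3 one of -0.52, neither called by edgeR in the main fit. Of the 7, 3 had an unadjusted p of 0.05 or less and DESeq2 called 2, Cdh2 and Matn2. The median of the list was -0.07. No peripheral myelin gene of 11 was called by edgeR, while 7 had an unadjusted p of 0.05 or less and DESeq2 called 4. Their median was -0.45, and values ran from -0.93 for Ncmap to 1.84 for Egr2, a transcription factor that had 1125 counts in DBA/2J pool 1 and 150 to 255 in the other pools and stood at 0.64 without that pool. The claudin gene Cldn19 had a log2 fold change of 1.64. Of 11 tested Schwann repair genes none was called by edgeR, with 3 at an unadjusted p of 0.05 or less and 2 called by DESeq2. Gdnf had a log2 fold change of -0.84, Sox2 one of 1.06 and Lif one of 1.16, which turned to -0.10 without DBA/2J pool 1.

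Genes of astrocytes and Müller glia, the retinal cells that also make Gfap, gave 2 calls of 13, both higher in DBA/2J, with a median of 0.02. Mlc1, a membrane protein of glial junctions, had DBA/2J counts of 2533, 2737 and 2585 and Gpnmb+ counts of 772 and 645, and rose by 2.07 on the log2 scale (adjusted p = 0.00894 by edgeR's quasi-likelihood test, standard error 0.11). Slc1a3, a glutamate transporter, had 3962, 4420 and 4324 counts against 1989 and 1604, and rose by 1.42 (standard error 0.12, adjusted p = 0.0217, same edgeR test). The Müller glia gene Rlbp1 had a log2 fold change of -0.20 and Glul one of 0.71, neither called by edgeR. Of the 13, 7 had a positive log2 fold change and 6 a negative one, and the pools of 7 did not overlap. An unadjusted p of 0.05 or less was found for 6, and DESeq2 called 6, Glul among them. Of 13 genes that reactive astrocytes raise together with Gfap, 12 had a positive log2 fold change, the median was 0.68, and 2 were called. The pools of 4 of the 13 did not overlap, beside 34.5% of all tested genes. An unadjusted p of 0.05 or less was found for 3, and DESeq2 called 3. DBA/2J pool 1 stood apart in the summed level of this list, at 10100 CPM against 5730 and 5660 in the other DBA/2J pools and 4730 and 2400 in Gpnmb+. In that pool Lcn2, Serpina3n and Timp1 had their highest counts. Cp, which encodes ceruloplasmin, rose by 1.89 (adjusted p = 0.0479, edgeR's quasi-likelihood test). S1pr3, a sphingosine-1-phosphate receptor, rose by 1.81 (adjusted p = 0.0189, same edgeR test). The intermediate filament gene Vim, which is expressed with Gfap in reactive glia, had a log2 fold change of 0.26 and Nes one of 0.26, neither called.

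Nefm, a neurofilament subunit of axons, was the 1 of 9 intermediate filament genes called. It had DBA/2J counts of 253, 562 and 342 and Gpnmb+ counts of 2355 and 3624, and fell by 2.77 on the log2 scale (adjusted p = 0.0444 by edgeR's quasi-likelihood test, standard error 0.37). Nefl had a log2 fold change of -1.76 without a call by edgeR in the main fit, and the peripheral neuron filament Prph one of 0.46. Of the 9, 2 had an unadjusted p of 0.05 or less and DESeq2 called 2, Nefm and Nefl. None of the 12 other tested S100 genes was called by edgeR, 1 had an unadjusted p of 0.05 or less and DESeq2 called 1. S100a14 had a log2 fold change of -0.61. S100a8 and S100a9, which neutrophils express, had 2494 and 5601 counts in DBA/2J pool 1 and at most 876 and 2300 in the other pools, and both turned negative without that pool, at -0.71 and -1.21.

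Of 14 neurotrophin ligand and receptor genes, 1 was called by edgeR, 7 had an unadjusted p of 0.05 or less and DESeq2 called 2. Ntrk2, the receptor for BDNF, had DBA/2J counts of 21838, 21981 and 25930 and Gpnmb+ counts of 9831 and 5966, and rose by 1.74 on the log2 scale (adjusted p = 0.0382 by edgeR's quasi-likelihood test, standard error 0.22). Ntrk3, the receptor for neurotrophin-3, had 438, 544 and 494 counts against 1075 and 1284, with a log2 fold change of -1.08 that lay at the threshold (adjusted p = 0.0501, same edgeR test). It was called with DESeq2 size factors in edgeR (adjusted p = 0.0493), by limma-voom (0.0481), without a count filter (0.0245) and by DESeq2 (9.32e-07), and not with any 1 pool left out (0.0531 to 0.193). Ngfr, which can bind the ligands of both receptors, had overlapping pools while the DBA/2J pools of Ntrk2 lay above and those of Ntrk3 below the Gpnmb+ pools. Of 12 genes related to L1 and NCAM adhesion, none was called by edgeR, 5 had an unadjusted p of 0.05 or less and DESeq2 called 4. Cntn1 had a log2 fold change of 1.61, Nfasc one of 1.18 and Nrcam, an L1 family member, one of -0.75. Without Gpnmb+ pool 1, edgeR called Cntn1 at 2.30 (adjusted p = 0.0194) and Nfasc at 1.70 (adjusted p = 0.0213), and without Gpnmb+ pool 2 they stood at 1.15 and 0.80. Of 7 tested lipocalin and apolipoprotein genes, none was called by edgeR, 2 had an unadjusted p of 0.05 or less and DESeq2 called 1. Lcn2 had 54304 counts in DBA/2J pool 1 and 1339 to 11304 in the other pools, and Rbp4 had a log2 fold change of -1.39 and Clu one of 0.53.

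**Figure D4:**
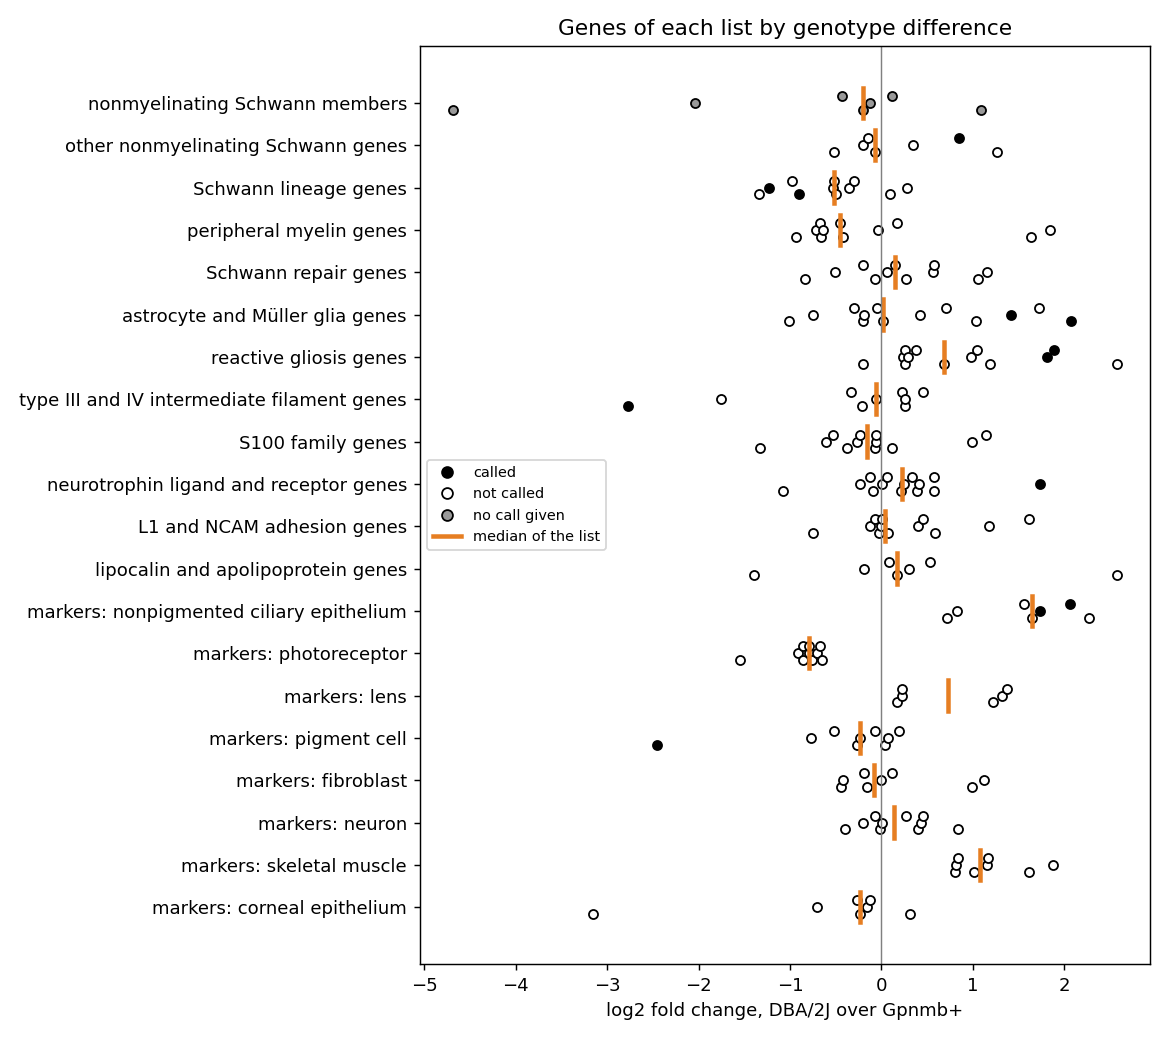
Log2 fold change, DBA/2J over Gpnmb+, of each tested gene (points, filled where called by edgeR, grey for the 7 glial genes, for which no call is given) in the 7 glial genes, the 11 related lists and 8 marker lists, with the median of each list as an orange bar. The glial genes spread from -4.69 to 1.09, the Schwann lineage list has a median of -0.52, and all markers of nonpigmented ciliary epithelium lie above 0.

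Markers of other tissues moved with genotype in part. The 7 markers of nonpigmented ciliary epithelium, a tissue beside the angle, all had higher DBA/2J values (median log2 fold change 1.65). Their summed level was 890 to 1150 CPM in DBA/2J and 204 and 359 CPM in Gpnmb+. edgeR called Col9a1 (2.06) and Six6 (1.74), while DESeq2 called all 7. All 7 had an unadjusted p of 0.05 or less in edgeR, and the pools of all 7 did not overlap. None was at 0. Their part in the higher Gfap, Mlc1, Slc1a3 and Ntrk2 was not tested. The astrocyte and Müller glia list summed to 3510 to 3900 CPM in DBA/2J and 2280 and 2670 in Gpnmb+. Photoreceptor markers, which would come with retina, did not separate the genotypes, at 599 to 883 CPM in DBA/2J and 362 and 1980 CPM in Gpnmb+, with no call in edgeR or DESeq2 and 0 of 10 at an unadjusted p of 0.05 or less. Lens markers summed to 17.7 to 22.8 CPM in DBA/2J and 15.8 and 17.7 CPM in Gpnmb+, with Lim2 at 0. All 6 tested had a positive log2 fold change (median 0.73), and the pools of 2 did not overlap, beside 34.5% of all tested genes. Neither edgeR nor DESeq2 called any, and 1 had an unadjusted p of 0.05 or less. Pigment cell markers summed to 3530 to 4650 CPM in DBA/2J and 3800 and 4440 in Gpnmb+, so the summed level overlapped. Dct and Tyrp1 had the highest counts of these 9 markers. The pools of 5 did not overlap, with Slc45a2 (-2.46), Pmel (-0.77), Slc24a5 (-0.52) and Oca2 (-0.27) lower and Tyr (0.19) higher in DBA/2J. edgeR called Slc45a2, 4 had an unadjusted p of 0.05 or less and DESeq2 called 2. The part of pigment cells in the lower S100b and Scrg1, and in the lower values of the Schwann lineage list, Sox10 and Erbb3 included, was not tested.

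Neuron markers summed to 71.9 to 105 CPM in DBA/2J and 50.9 and 119 in Gpnmb+, with no call in edgeR or DESeq2 and 1 of 10 at an unadjusted p of 0.05 or less. Skeletal muscle markers, which matter for Ncam1, all had a positive log2 fold change and summed to 212, 291 and 560 CPM across DBA/2J pools 1 to 3, against 224 and 129 across Gpnmb+ pools 1 and 2, an order in DBA/2J that Ncam1 shared. None was called by edgeR, 2 had an unadjusted p of 0.05 or less and DESeq2 called 1. Their part in the Ncam1 values was not tested. Fibroblast markers, which matter for Apod, summed to 5560 to 6160 CPM in DBA/2J and 5160 and 5870 in Gpnmb+, so the summed level overlapped. Single markers moved in opposite directions. The pools of 3 of the 8 did not overlap, with Col1a1 and Col3a1 higher and Dcn lower in DBA/2J. None was called by edgeR, 3 had an unadjusted p of 0.05 or less and DESeq2 called 2, Col1a1 and Col3a1. The part of fibroblasts in the Apod values was not tested. Corneal epithelium markers summed to 6610 to 11000 CPM in DBA/2J and 10900 and 12100 in Gpnmb+, and Krt12 varied from 421 counts in DBA/2J pool 3 to 86337 in Gpnmb+ pool 1.

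**Figure D5:**
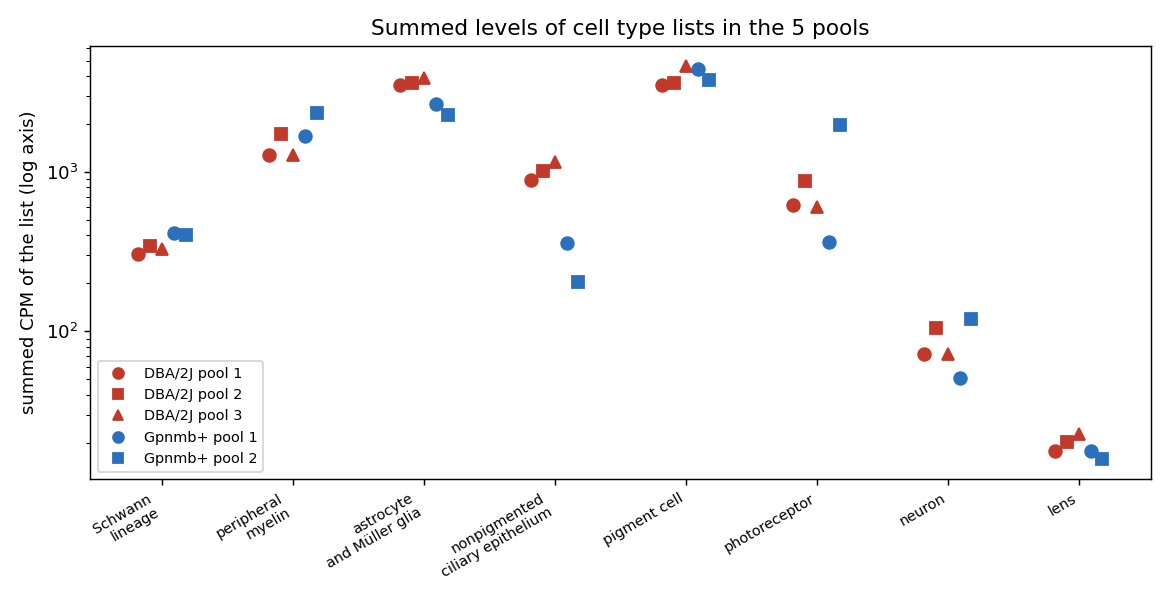
Summed CPM of 8 cell type lists in each of the 5 pools on a log axis, with genotype in colour and pool number by marker shape. The nonpigmented ciliary epithelium and astrocyte lists are higher in all DBA/2J pools, the Schwann lineage list is lower, and the pigment cell, photoreceptor and neuron lists overlap.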

How the data were processed

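Messenger RNA libraries came from 5 pools of the angle tissue. Reads had been trimmed (fastp) and mapped to GRCm39 (STAR), per the study's methods, and the deposited values are the authors' raw counts, 1 whole number per gene and pool, made from reads with a single alignment and not normalized. The strand setting is not given in the sources used here, so overlapping and antisense genes are uncertain. Names, positions and exon lengths came from GENCODE mouse release M39 (GRCm39), which held 56323 of 56941 identifiers, and promoters from RefSeq tables.

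A gene needed 10 counts in 1 or more pools, and the genes that passed were tested for genotype with edgeR 4.0.16 (R 4.3.3), with no covariate. The standard error is the log2 fold change divided by the square root of the test statistic. Log2 CPM used a prior count of 2. Figures were drawn with matplotlib 3.10.9. The scripts were tested on simulated data. DESeq2 1.42.0, limma-voom (limma 3.58.1), DESeq2 size factors, edgeR's filterByExpr, no count filter, a replicate block, a prior count of 0.5 and each pool left out were the alternatives.

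The 7 genes, the lists and the markers were chosen with earlier results of these data known. Named list genes were the called ones, up to 4 by size of log2 fold change, or otherwise up to 3 of the largest with a mean log2 CPM of at least 0; a few further genes (Sox10, Erbb3, Rlbp1, Glul, Vim, Nes, Lim2, Serpina3n, Timp1, Dct, Tyrp1, Oca2 and Tyr) were named after their values were seen. An exact two-sided permutation test of 3 pools against 2 cannot go below p = 0.2, so none was used. No 2 pools held identical counts. Pools average over several mice, so the spread between pools is not that between mice. Some genes of the lists enter the counts, medians and sums but are not reported here by name.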

Additional observations from a re-analysis of the deposited data

How the results depend on the processing

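The log2 fold changes of Gfap, S100b, Scrg1, Apod and L1cam kept their direction under all 11 alternatives. Gfap ran from 0.88 to 1.28 and S100b from -2.24 to -1.81. Gfap, S100b and Scrg1 were picked for their direction and their pools did not overlap. Leaving out a pool could hardly turn them, so nothing is read from their kept direction. With a pool left out, Scrg1 ran from -5.08 to -4.49, the Gfap minus Scrg1 difference from 5.42 to 6.28 and Apod from -0.73 to -0.06. Ngfr ran from -0.25 to 0.02 and Ncam1 from -0.06 to 0.23, so neither has a settled direction. With a pool left out, the number of genes called by edgeR among all genes ran from 1 to 217 and that among the fixed lists from 0 to 12. Without a Gpnmb+ pool the lone library left was assumed to vary like the others. DESeq2 called 927 genes, 31 of them in the lists, and leaving out the count filter gave 360 and 17. The cause was not tested. The pool numbers were also used as a replicate block. Deviations of same-numbered pools from their genotype means correlated across genes at 0.28 and 0.25. With 2 Gpnmb+ pools their deviations are exact opposites, so both values rest on 1 Gpnmb+ difference and are not separate evidence. Only 2 numbers are shared, and no label says that a number marks a shared batch or day. With the block, 220 genes were called, 107 of them among the 157, and 16 in the lists. The call of Lgi4 was lost with the block (adjusted p = 0.0611 in edgeR). Ntrk3 (0.0443), S100a9 (0.034), Matn2 (0.0318) and Nefl (0.0317) were among the list genes called with it.

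Of the genes that turned direction, Sag and Rcvrn were called by edgeR without Gpnmb+ pool 1 (adjusted p = 0.0334 and 0.0335) and S100a9 with the block. With a pool left out, log2 fold changes ran from -0.10 to 1.55 for Lif, -0.71 to 2.70 for S100a8, -1.21 to 3.57 for S100a9, -0.12 to 0.59 for Bfsp1, -0.22 to 0.89 for Krt14, -0.51 to 1.87 for Cryaa, -1.69 to 0.95 for Pdc, -1.66 to 1.1 for Sag, -1.60 to 0.75 for Rcvrn and -1.13 to 1.18 for Snap25. With the block, Cryaa was at -0.09 and Snap25 at 0.04. Depth limits Scrg1 in DBA/2J, where log2 CPM moved with a prior count of 0.5 in all 3 pools.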
